A study of Mus musculus with 12 samples.

Results

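The transcriptional response of IL-2-maintained CD4 T-blast cells to PMA and calcium ionophore (PMA/I) was measured by RNA-Seq, by comparing TB+ IL-2 with TB IL-2 across all genes. T-blast cells (TB) are dividing CD4 T cells obtained by a transient activation with concanavalin A (ConA). TB+ are the same cells after PMA/I. These 2 groups hold 3 libraries each, 6 of the 12 in the series. All cells came from the spleen of C57BL/6 C42 mice, which carry a fragment of the human *IL3/CSF2* locus, and were cultured with 2 ug/ml ConA for 40 h. They were then kept in 50 U/ml IL-2, and in TB IL-2 and TB+ IL-2 this IL-2 stayed present through a last 16 h. TB+ IL-2 cells received 20 ng/ml PMA and 2 uM ionophore for 2 h, and TB IL-2 cells received neither. The other 6 libraries, TB IL-2nil and TB+ IL-2nil, were cultured without IL-2 for those 16 h and serve below as the reference for the response in the absence of IL-2. The ages of the mice and how many mice stand behind a library are not given in the sources used here, so the P-values measure the spread between these cultures, which may be technical. The study asked how far IL-2 maintains the inducible gene programme of recently activated T cells.

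The samples were chosen from the labels with 1 exception that rests on measured values. The library labelled TB IL-2nil replicate 3 was placed as TB+ IL-2 replicate 3, and the library labelled TB+ IL-2 replicate 3 was placed as TB IL-2nil replicate 3. This exchange follows the study's own table of called genes, which lists a value for each library. For this match the deposited values were rescaled to TPM, filtered for low values and quantile normalized, a form chosen by its fit to 1 column. Over 1381 genes, these values of the best library met 99.86 to 100% of the values in each of the 12 columns within 0.1%. Those of the next best library met at most 1.59%. For 10 columns the best library carried the same label, and for 2 columns it carried the label of the other. Because the placement was taken from measured values, the total counts and most counts of gene lists are also given without both of these libraries. This leaves 2 TB+ IL-2 libraries against 3 TB IL-2 libraries. Most values of single genes are given with all libraries only. Among the 562 genes that are higher in those 5 libraries, TB+ IL-2 replicate 3 lay above all 3 TB IL-2 libraries for 550 (97.9%). Among the 483 that are lower, it lay below all 3 for 474 (98.1%). The library placed as TB IL-2nil replicate 3 lay above all TB IL-2 libraries for 214 of the same 562 genes and below them for 145 of the 483.

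PMA stands in for diacylglycerol and activates protein kinase C and the Ras and MAP kinase cascade, while the ionophore lets calcium into the cell and thereby activates the phosphatase calcineurin. The combination bypasses the T cell receptor (TCR) and activates AP-1, NF-kB and NFAT, the transcription factors that act together at cytokine genes. IL-2 itself signals through JAK kinases and STAT5 and keeps T-blast cells dividing. Genes that respond to PMA/I within a few hours include the immediate early genes of the FOS, JUN, EGR and NR4A families, cytokines and feedback inhibitors of the same pathways.

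The promoters of 4 strongly induced genes are shown because they hold short motifs bound by NFAT, by CREB and ATF, or by NF-kB proteins. Each sequence is the 250 bases before the transcription start in RefSeq (GRCm38.p6), written along the strand of the gene. *Il2* lies on the minus strand at chr3:37125955-37126204, and the capitals mark 2 copies of GGAAA, the core of NFAT sites, found on either strand. *Nr4a1* lies on the plus strand at chr15:101266596-101266845 and *Nr4a3* on the plus strand at chr4:48045055-48045304, and in each the capitals mark 4 copies of TGACG or its reverse complement, the half-site bound by CREB and ATF proteins. *Rel* lies on the minus strand at chr11:23770970-23771219, and the capitals mark 2 overlapping matches to the NF-kB consensus.
Il2: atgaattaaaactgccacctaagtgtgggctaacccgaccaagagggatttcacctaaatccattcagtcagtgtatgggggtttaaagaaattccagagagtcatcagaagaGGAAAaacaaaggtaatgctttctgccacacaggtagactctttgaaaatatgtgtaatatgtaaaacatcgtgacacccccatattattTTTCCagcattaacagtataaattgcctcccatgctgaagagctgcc
Nr4a1: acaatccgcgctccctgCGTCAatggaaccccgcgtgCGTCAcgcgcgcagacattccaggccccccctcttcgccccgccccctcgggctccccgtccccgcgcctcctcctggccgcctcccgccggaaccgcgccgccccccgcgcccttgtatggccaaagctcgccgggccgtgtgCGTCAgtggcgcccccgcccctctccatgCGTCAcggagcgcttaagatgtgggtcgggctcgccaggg
Nr4a3: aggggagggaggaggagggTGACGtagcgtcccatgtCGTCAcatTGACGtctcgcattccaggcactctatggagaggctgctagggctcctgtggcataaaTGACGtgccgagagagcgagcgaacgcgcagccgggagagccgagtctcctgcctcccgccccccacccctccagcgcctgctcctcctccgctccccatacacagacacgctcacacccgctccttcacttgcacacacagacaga
Rel: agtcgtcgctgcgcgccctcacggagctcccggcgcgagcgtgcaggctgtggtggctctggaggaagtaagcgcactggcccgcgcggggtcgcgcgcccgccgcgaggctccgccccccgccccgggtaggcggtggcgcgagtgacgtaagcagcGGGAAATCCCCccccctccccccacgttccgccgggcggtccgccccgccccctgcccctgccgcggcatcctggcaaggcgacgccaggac

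Levels are given in TPM, a measure of transcript abundance corrected for transcript length and library total, then scaled so that the upper quartiles of the libraries were equal. The differences are in log2(TPM + 1), with their standard error (SE), and understate the change of genes with few TPM. A gene was called where it differed by more than 3-fold on this scale at an adjusted P under 0.05 (limma, Benjamini-Hochberg adjustment over all 12442 genes that passed the filter on low values). PMA/I was followed by higher levels of 490 genes, 3.94% of the genes tested, and by lower levels of 386 genes, 3.1%. Without both moved libraries the counts were 562 (4.52%) and 483 (3.88%), and 479 (97.8%) of the 490 and 372 (96.4%) of the 386 were called again. With all libraries kept as labelled the counts were 21 and 23. At the adjusted P alone, whatever the size, 1471 genes were higher (11.8%) and 2901 lower (23.3%). The 3 TB+ IL-2 values did not overlap with the 3 TB IL-2 values for 487 of the 490 and 385 of the 386 genes, and for 51.7% of all genes tested. The median difference of all genes was -0.22, so a gene near this value moved with the bulk of the transcriptome. The shares of called genes in the gene lists below stand against 3.94% higher and 3.1% lower over all genes tested.

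**Figure D1:**
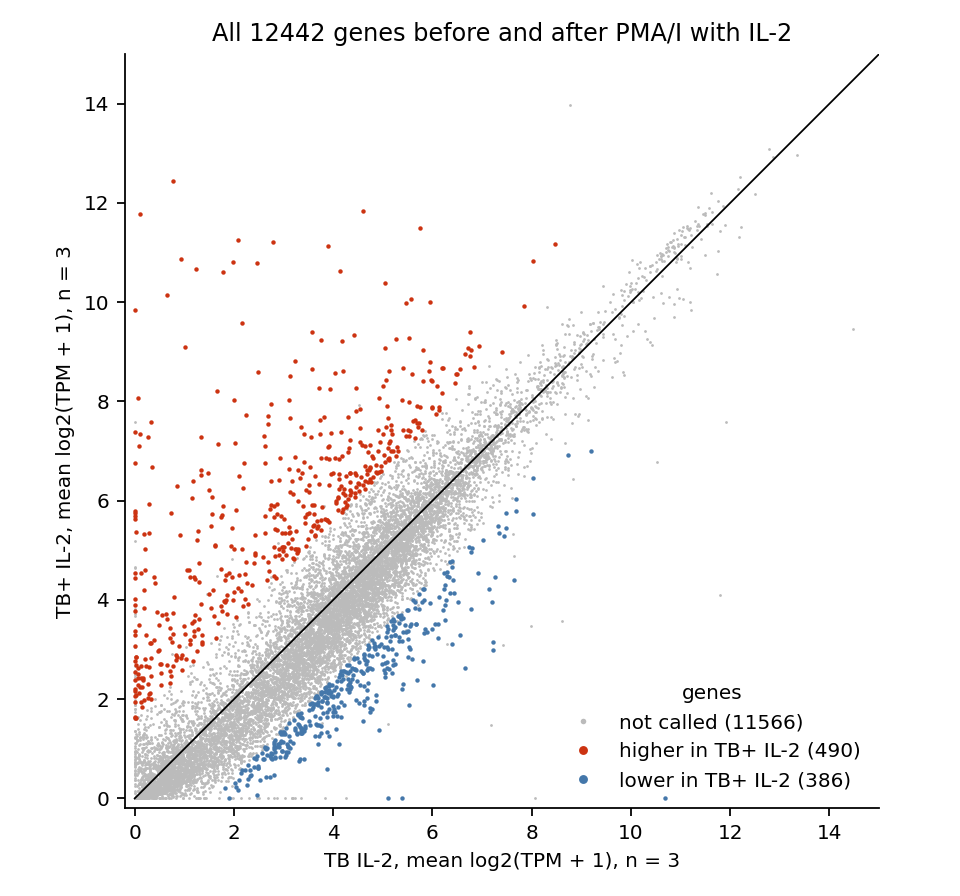
Mean log2(TPM + 1) of 3 TB IL-2 libraries (x axis) and of 3 TB+ IL-2 libraries (y axis) for each of 12442 genes. Red points are the 490 genes called higher, blue points the 386 called lower and grey points all others, the line marks equal values, and the red points reach much farther from the line than the blue ones.

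Induction reached much larger sizes than repression. On the log2(TPM + 1) scale 127 genes rose by over 10-fold and 22 by over 100-fold, while 9 fell by over 10-fold and 1 by over 100-fold. That 1 was the small RNA *Snord12*, listed at 0 after PMA/I, whose value is uncertain as given below. The median difference was 2.39 for the induced and -1.91 for the repressed genes. Levels of the induced genes had a median of 7.38 TPM in TB IL-2 and 65.6 TPM in TB+ IL-2, and 91 of them were under 1 TPM in all 3 TB IL-2 libraries, 19 being listed at 0 in all 3. Of the repressed genes 31 were under 1 TPM in all 3 TB+ IL-2 libraries. The induced genes made up 1.11, 0.688 and 0.995% of the TPM of the genes tested in TB IL-2 replicates 1 to 3, and 12.6, 9.42 and 7.93% in the TB+ IL-2 replicates. For the repressed genes these shares were 2.23, 1.25 and 1.54% and then 0.259, 0.233 and 0.379%. In these bulk libraries a lower level can also mean fewer cells of one kind or less RNA per cell, which cannot be told apart.

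Within each replicate number the induced genes had median differences of 2.69, 2.54 and 2.14, and the repressed genes of -2.30, -1.93 and -1.66. The medians of all genes within the same numbers were -0.26, -0.18 and -0.18. TB+ IL-2 replicate 3 was the lowest of the TB+ IL-2 libraries for 333 of the 490 induced genes and the highest for 275 of the 386 repressed genes, so that it had the smallest response of the 3 in most called genes. The depth of the 6 libraries was 0.785 to 1.23 of the median library, and short non-coding RNAs took 16.6 to 43.9% of their TPM, most in TB IL-2 replicate 2.

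The cells carried the markers of CD4 T cells in both groups. The marker sums given here are of TPM before the upper quartiles were made equal, and values of single genes are after it. All 6 of these markers were present, with a sum of 942 to 1696 TPM in TB IL-2 and 1107 to 1385 TPM in TB+ IL-2, and 0 of them was called. *Cd3e* was at 354, 392 and 365 TPM in TB IL-2 and at 335, 275 and 355 TPM in TB+ IL-2. The B cell markers summed to 7.81 to 15.7 TPM and then 3.14 to 4.07 TPM, the myeloid markers to 2.2 to 7.46 and 2.08 to 2.97 TPM, and the NK cell markers to at most 0.189 and 1.66 TPM. None of these 3 lists held a called gene, and *Ncr1* and *C1qa* were listed at 0 in all 6 libraries. The CD8 T cell markers *Cd8a* and *Cd8b1* summed to 5.41 to 42.8 TPM and 6.79 to 30.2 TPM and were highest in replicate 1 of both groups. Over the 5 markers of regulatory T cells the sum was 266 to 510 TPM and 215 to 302 TPM, with *Foxp3* under 2 TPM throughout and with 1 called gene, *Lrrc32*, which fell. Without the moved libraries *Ctla4* of this list was called higher as well (2.33, adjusted P = 0.0147). The part of these other cell types in the results was not tested.

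Cytokine genes had the largest median difference of the 27 gene lists other than cell type markers, 4.12 against -0.22 over all genes. Of 25 cytokine genes tested, 17 rose (68%) and 3 fell (12%). Without the moved libraries 18 rose and 3 fell. The rises ran from 2.20 to 11.67. *Il2*, the growth factor of T cells (chr3:37019445-37024881, minus strand, mm9), was at 3.12, 0.207 and 0 TPM in TB IL-2 and at 7657, 6315 and 3539 TPM in TB+ IL-2. No other called gene had a higher mean over the 6 libraries. Its difference was 11.67 (SE 0.56, adjusted P = 2.01e-07), and 11.99 (adjusted P = 6e-06) without the moved libraries.

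*Il3* and *Csf2*, neighbouring genes on mouse chromosome 11 that encode growth factors of myeloid cells, rose as well. *Il3* (chr11:54078805-54080779, minus strand, mm9) went from 0.262, 0 and 0 TPM to 3751, 5779 and 2026 TPM, a difference of 11.67 (SE 0.44, adjusted P = 4.04e-08). *Csf2* (chr11:54060773-54063169, minus strand, mm9) went from 3.41, 4.27 and 2.31 TPM to 2332, 3656 and 1736 TPM, a difference of 9.17 (SE 0.35, adjusted P = 4.27e-08). Both groups of values lay far apart, and in both genes replicate 2 was the highest TB+ IL-2 library and replicate 3 the lowest. The mice carry human copies of both genes, and whether reads from the human transcripts entered the mouse values was not tested.

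Cytokines typical of different T helper subsets were induced in the same bulk libraries, which do not show whether the same cells made them. *Ifng*, the cytokine of Th1 cells, was at 1.46, 3.86 and 4.14 TPM before and at 1252, 3803 and 1230 TPM after PMA/I (8.84, SE 0.46, adjusted P = 3.33e-07). *Il13*, a cytokine of Th2 cells, was at 12.5, 3.10 and 2.03 TPM and then at 2964, 1672 and 1140 TPM (8.34, SE 0.62, adjusted P = 5.57e-06). The itch cytokine gene *Il31* was listed at 0 in all 3 TB IL-2 libraries and was at 2075, 1185 and 320 TPM in TB+ IL-2 (adjusted P = 1.51e-06), so no fold is given. *Il4*, *Il6*, *Il10*, *Il17a*, *Il17f*, *Il21*, *Il22*, *Il24*, *Lif* and *Areg* rose as well.

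*Tnf*, which encodes a major inflammatory cytokine, was already present at 30.7, 80.6 and 59.7 TPM and reached 4623, 1625 and 3142 TPM (5.73, SE 0.52, adjusted P = 2.17e-05). The 3 cytokine genes that fell were *Il16*, *Ltb* and *Osm*. *Il16*, which encodes a chemoattractant of CD4 cells, went from 55.8, 39.5 and 41.4 TPM to 1.39, 4.60 and 2.82 TPM (-3.63, SE 0.40, adjusted P = 7.72e-05). *Ltb*, a membrane-bound TNF family member, went from 260.0, 255 and 270.0 TPM to 71.1, 70.2 and 130.0 TPM (-1.59, SE 0.35, adjusted P = 0.00515). The *Ltb* values were close to the threshold of 3-fold and missed it without TB IL-2 replicate 3 (-1.56), TB+ IL-2 replicate 1 (-1.45) or TB+ IL-2 replicate 2 (-1.44). *Il5*, *Il9*, *Csf1*, *Lta* and *Tgfb1* were tested and not called.

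**Figure D2:**
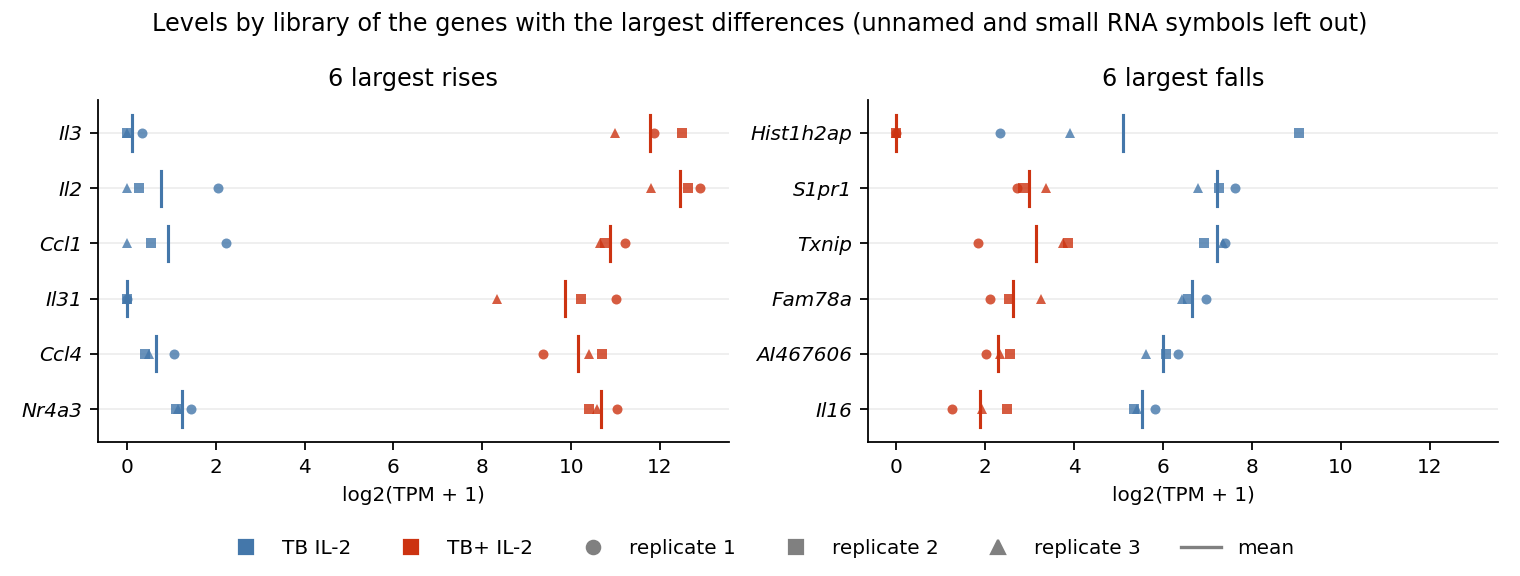
Log2(TPM + 1) (x axis) in each TB IL-2 (blue) and TB+ IL-2 (red) library for the 6 genes with the largest rises (left) and the 6 with the largest falls (right) after unnamed and small RNA symbols such as *Snord12* were left out, with replicates by symbol and group means as bars. The induced genes sat near the bottom of the scale before PMA/I, as *Nr4a3* at 1.16 to 1.72 TPM, while the repressed genes other than *Hist1h2ap* fell from intermediate levels, as *S1pr1* from 110.0 to 195 TPM, and *Hist1h2ap* had by far the widest spread before PMA/I.

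Chemokines and TNF family ligands, through which T cells recruit and instruct other cells, were called higher in many members. Of 11 chemokine genes 6 rose (54.5%) and 0 fell, with or without the moved libraries. *Ccl1* went from 3.70, 0.468 and 0 TPM to 2361, 1741 and 1593 TPM (9.94, SE 0.54, adjusted P = 5.18e-07). *Ccl4*, an inflammatory chemokine, went from 1.09, 0.324 and 0.423 TPM to 655, 1659 and 1349 TPM (9.49, SE 0.51, adjusted P = 4.57e-07). *Ccl3*, a related chemokine, was at or under 0.144 TPM before and at 173 to 371 TPM after PMA/I. For *Ccl4* and *Ccl3* replicate 1 was the lowest TB+ IL-2 library, in contrast to *Il2* and *Csf2*, where replicate 3 was.

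Of 10 TNF superfamily ligands 7 rose (70%) and 0 fell, also without the moved libraries, with a median of 4.08. *Cd40lg*, the T cell signal that activates B cells, rose from 38.4, 17.6 and 18.3 TPM to 5095, 3617 and 2619 TPM (7.23, SE 0.35, adjusted P = 2.18e-07). *Tnfsf14*, the ligand LIGHT, rose from 3.11, 3.42 and 3.86 TPM to 984, 764 and 604 TPM (7.43, SE 0.22, adjusted P = 5.08e-09), with little spread within either group. *Tnfsf11*, the ligand RANKL, rose from 2.20 to 6.81 TPM to 240.0 to 583 TPM, and *Tnfsf8*, the ligand of CD30, from 16.2 to 70.4 TPM to 710.0 to 2242 TPM. Of 10 TNF receptor superfamily genes, which encode their receptors and other costimulators, 3 rose (30%) and 0 fell. They were *Tnfrsf9*, *Tnfrsf4* and *Fas*, with differences of 2.38, 2.36 and 1.90.

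Most of the immediate early transcription factor genes tested were called higher. Of 15 genes of AP-1 and its partners 11 rose (73.3%), and of 18 EGR, NR4A and other early response genes 12 rose (66.7%). In either list 0 fell, and all these counts were the same without the moved libraries. The medians of the lists were 3.15 and 3.05. *Nr4a3* and *Nr4a1*, orphan nuclear receptors whose promoters are printed above, were at low levels before PMA/I and among the large rises. *Nr4a3* went from 1.72, 1.16 and 1.21 TPM to 2079, 1353 and 1534 TPM (9.44, SE 0.25, adjusted P = 3.3e-09). *Nr4a1* went from 4.89, 3.23 and 12.3 TPM to 3355, 1548 and 2577 TPM (8.42, SE 0.43, adjusted P = 2.85e-07). All TB+ IL-2 libraries were at 1353 TPM or more for both genes.

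*Egr2* and *Egr3*, zinc finger factors that restrain T cell activation, rose by 8.08 (SE 0.21, adjusted P = 3.3e-09) and 8.84 (SE 0.37, adjusted P = 1.03e-07). *Egr2* was at 0.637 to 1.26 TPM before and at 494 to 670.0 TPM after PMA/I. *Atf3*, a stress-induced bZIP factor, rose from at most 2.46 TPM to up to 379 TPM (6.56, SE 0.31, adjusted P = 1.92e-07), and *Irf4*, a partner of BATF and JUN proteins, from 13.7, 26.9 and 23.1 TPM to 922, 665 and 442 TPM. The genes *Jund*, *Batf*, *Batf3* and *Mafg* of the AP-1 list were not called.

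TB IL-2 replicate 3 already held more of several early transcripts than the other two TB IL-2 libraries. *Fos* was at 2.84, 15.5 and 55.3 TPM in TB IL-2 and at 442, 188 and 331 TPM in TB+ IL-2 (4.31, SE 0.92, adjusted P = 0.00441). *Fosb* was at 1.01, 0.187 and 25.4 TPM and then at 451, 132 and 299 TPM (6.04, SE 1.02, adjusted P = 0.00118). In both genes the groups did not overlap. Among the 23 induced genes of the AP-1 and EGR/NR4A lists, TB IL-2 replicate 3 was the highest TB IL-2 library for 15, and over all 490 induced genes for 131. What this library's state contributes was not tested.

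NF-kB genes rose on both sides of the pathway, its subunits and its inhibitors. Of 16 genes 13 rose (81.2%) and 0 fell, with a median of 2.34, and without the moved libraries 13 rose and 1 fell. *Rel*, the c-Rel subunit needed for *Il2* transcription, rose from 10.4, 8.31 and 14.8 TPM to 507, 327 and 398 TPM (5.09, SE 0.29, adjusted P = 8.06e-07). *Nfkbid*, a nuclear IkB protein, rose from 14.5, 18.2 and 17.6 TPM to 1920.0, 1372 and 1505 TPM (6.48, SE 0.22, adjusted P = 1.52e-08). All 5 subunit genes, *Nfkb1*, *Nfkb2*, *Rel*, *Rela* and *Relb*, were among those that rose. *Tnfaip3*, which encodes the deubiquitinase A20 that ends NF-kB signalling, was at 8.38, 4.26 and 60.6 TPM before and 119, 115 and 110.0 TPM after PMA/I (3.0, SE 0.92, adjusted P = 0.0261). Its call was lost without TB IL-2 replicate 1 (2.68, adjusted P = 0.0881), without TB IL-2 replicate 2 (2.27, adjusted P = 0.0949) and without any 1 of the TB+ IL-2 libraries (2.97 to 3.03, adjusted P = 0.0544 to 0.0696).

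Calcineurin and NFAT genes went both ways. Of 13 genes 3 rose (23.1%) and 2 fell (15.4%), and 2 rose and 3 fell without the moved libraries. *Rcan1*, an inhibitor of calcineurin, rose from 3.98 to 5.13 TPM to 24.4 to 62.2 TPM (2.88, SE 0.32, adjusted P = 8.4e-05). *Nfatc2*, the NFAT family member already present in resting T cells, fell from 96.6, 118 and 65.8 TPM to 12.3, 13.4 and 18.3 TPM (-2.57, SE 0.26, adjusted P = 4.39e-05). *Nfatc1*, the family member that is induced on activation, went from 46.0 to 55.0 TPM to 120.0 to 178 TPM (1.62, SE 0.21, adjusted P = 0.000272). That rise is close to 3-fold and fell under it without the moved libraries (1.55), and likewise without TB IL-2 replicate 2 (1.57), TB+ IL-2 replicate 1 (1.51) or TB+ IL-2 replicate 3 (1.55).

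Of 14 negative feedback genes of the MAP kinase pathway 8 rose (57.1%) and 1, *Dusp7*, fell (7.14%), also without the moved libraries. *Spry1*, which restrains Ras signalling, rose from 5.72, 22.3 and 9.61 TPM to 875, 652 and 534 TPM (5.83, SE 0.39, adjusted P = 2.5e-06). *Dusp4* and *Dusp2*, phosphatases that switch off MAP kinases, rose by 4.46 (SE 0.44, adjusted P = 3.89e-05) and 3.25 (SE 0.26, adjusted P = 9.57e-06). *Errfi1*, an inhibitor of EGF receptor signalling, rose from 3.08 to 7.63 TPM to 92.3 to 122 TPM.

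Of 13 regulators of cytokine mRNA decay 3 rose (23.1%) and 1 fell (7.69%). *Zfp36l1*, which promotes the decay of AU-rich mRNAs, rose from 45.1, 43.6 and 51.5 TPM to 1202, 1026 and 989 TPM (4.49, SE 0.20, adjusted P = 1.25e-07), and its groups were far apart with little spread. *Zc3h12a*, the RNase Regnase-1, rose from 7.19 to 15 TPM to 43.1 to 71.5 TPM. *Arid5a*, which stabilises cytokine mRNAs, fell from 35.6 to 38.4 TPM to 8.06 to 13.3 TPM (-1.79, SE 0.25, adjusted P = 0.000372).

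Of 18 genes of the CD28 family, checkpoint and activation receptors 11 rose (61.1%) and 0 fell, with a median of 2.05. Without the moved libraries 12 rose. *Pdcd1*, which encodes the checkpoint receptor PD-1, rose from 4.22, 0.642 and 0.360 TPM to 124, 87.3 and 52.9 TPM (5.21, SE 0.58, adjusted P = 8.97e-05). *Havcr2*, which encodes TIM-3, rose from 1.75, 0.380 and 0.207 TPM to 73.4, 52.2 and 38.6 TPM (5.02, SE 0.31, adjusted P = 1.36e-06). *Slamf1*, a costimulatory receptor, rose from 14.3 to 16.9 TPM to 283 to 535 TPM. *Cd69*, the classical early activation marker, was at 23.4, 51.2 and 182 TPM before and 528, 416 and 390.0 TPM after PMA/I (2.84, SE 0.92, adjusted P = 0.0338). The call of *Cd69* was kept only without TB IL-2 replicate 3 among the 6 ways of leaving out 1 library. Without TB IL-2 replicate 1 or 2 its difference was 2.18 (adjusted P = 0.129) and 2.72 (adjusted P = 0.0819), and without a TB+ IL-2 library it was 2.71 to 2.93 (adjusted P = 0.062 to 0.091).

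Some induced genes lay next to each other, and whether they did so more often than other genes was not tested. The stretches given here, in mm9 coordinates, held at least 3 induced genes with gaps of at most 100 kb, and their genes are named although they were found after the values were seen. On chromosome 19 from 29326318 to 29545647 lay *Jak2*, *Insl6*, *Cd274* and *Pdcd1lg2*, of which the last pair encode the PD-1 ligands. *Cd274* rose from 12.3, 8.46 and 11.6 TPM to 233, 117 and 137 TPM and *Jak2*, the kinase of many cytokine receptors, from 51.9, 28.4 and 35.4 TPM to 710.0, 722 and 441 TPM. On chromosome 17 from 57244808 to 57367559 lay *Tnfsf9*, *Tnfsf14* and *C3*, and on chromosome 13 from 63066253 to 63598586 *2010111I01Rik*, *Gm16907* and *Fancc*. The protein-coding induced genes had a median span of 21.5 kb (n = 435), the repressed of 19.1 kb (n = 336) and all tested of 22 kb (n = 10459).

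**Figure D3:**
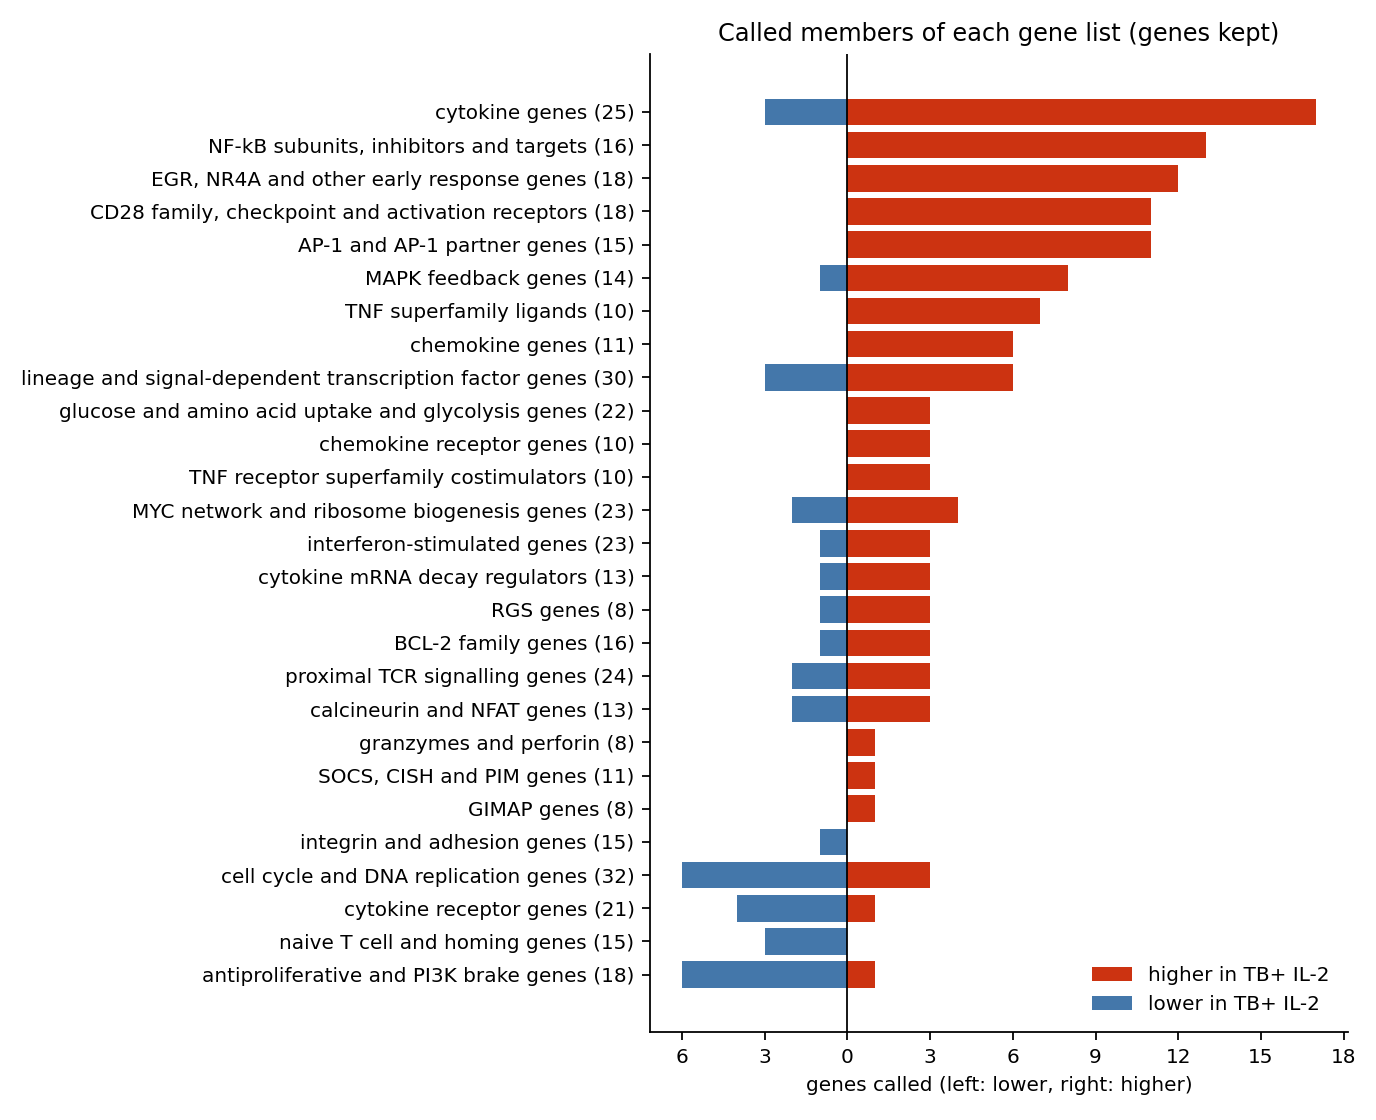
Number of genes called higher (red, to the right) and lower (blue, to the left) in TB+ IL-2 for each of 27 gene lists, with the number of genes tested in brackets. The cytokine genes head the plot with 17 higher and 3 lower, and the antiproliferative genes stand at its foot with 1 higher and 6 lower.

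Genes of T cell trafficking and quiescence were found among the large falls. Of 15 genes of naive T cells and homing 3 fell (20%) and 0 rose, and without the moved libraries 4 fell. *S1pr1*, the receptor through which T cells leave lymph nodes (chr3:115413351-115417973, minus strand, mm9), fell from 195, 153 and 110.0 TPM to 5.57, 6.26 and 9.35 TPM (-4.24, SE 0.39, adjusted P = 2.31e-05). *Klf2*, the transcription factor that drives *S1pr1*, fell from 99.5, 84.0 and 71.2 TPM to 14.5, 17.5 and 31.4 TPM (-2.02, SE 0.30, adjusted P = 0.00061). *Ccr7*, the receptor for entry into lymph nodes, fell from 123, 76.3 and 61.7 TPM to 8.30, 4.95 and 10.8 TPM (-3.28, SE 0.46, adjusted P = 0.000371). For all 3 genes the TB IL-2 libraries were ordered the same way, with replicate 1 the highest. *S1pr4*, a related receptor, fell by 3.28 (SE 0.38, adjusted P = 0.000119) on the log2 scale. *Tcf7*, *Lef1*, *Foxo1* and *Il7r* were tested and not called.

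Brakes on proliferation and on PI3K signalling fell more often than they rose, 6 (33.3%) against 1 (5.56%) of 18. The counts were the same without the moved libraries, and the median was -0.90. *Txnip*, an inhibitor of glucose uptake, fell from 167, 120.0 and 161 TPM to 2.55, 13.5 and 12.5 TPM (-4.07, SE 0.59, adjusted P = 0.000472). *Kbtbd11* fell from 132, 165 and 127 TPM to 18.7, 19.1 and 15.6 TPM (-2.92, SE 0.20, adjusted P = 2.68e-06), and *Pik3ip1*, an inhibitor of PI3K, from 6.24 to 20.4 TPM to 0.891 to 1.85 TPM. The cyclin-dependent kinase inhibitor genes *Cdkn1b* and *Cdkn2c* were among those that fell. *Btg1*, an antiproliferative gene, went the other way and rose from 59.0, 39.7 and 70.1 TPM to 388, 371 and 272 TPM (2.61, SE 0.23, adjusted P = 1.49e-05).

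Of 32 genes of the cell cycle and DNA replication 6 fell (18.8%) and 3 rose (9.38%), with a median of -0.61. Without the moved libraries 8 fell and 2 rose. *Ccnd3*, a D-type cyclin, fell from 228, 293 and 260.0 TPM to 65.3, 32.1 and 68.7 TPM (-2.28, SE 0.32, adjusted P = 0.00036). *Cdc6*, a licensing factor of replication, fell from 17.5 to 37.0 TPM to 2.58 to 5.33 TPM, and *E2f2*, a transcription factor of S phase genes, from 39.1 to 91.4 TPM to 5.35 to 13.0 TPM. *Ccne1*, *Plk1* and *Aurka* fell too, and so did *Ccnf* outside this list (-3.29, SE 0.42, adjusted P = 0.000209). The 3 genes that rose, *Plk3*, *Plk2* and *Cdkn1a*, are better known as stress-responsive genes than as drivers of division. *Plk3* rose from 11.1, 11.9 and 13.4 TPM to 398, 198 and 367 TPM (4.56, SE 0.40, adjusted P = 1.49e-05). *Pcna*, the replication clamp, was at 500.0 to 808 TPM before and 625 to 792 TPM after PMA/I (0.14, SE 0.19, adjusted P = 0.616).

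Histone genes were among the falls, with uneven values in TB IL-2. *Hist1h2ap* was at 4.07, 534 and 13.9 TPM in TB IL-2 and was listed at 0 in all TB+ IL-2 libraries (adjusted P = 0.00913), and in a fit of the 6 libraries alone the adjusted P was 0.0573. *Hist1h3g* fell from 498, 915 and 442 TPM to 84.9, 156 and 153 TPM (-2.20, SE 0.56, adjusted P = 0.0113). Replicate 2 was the highest TB IL-2 library in both. Histone genes have near-identical copies among which the counting can split reads, so these 2 are uncertain. *Snord12* was at 2000.0, 2792 and 793 TPM in TB IL-2 and listed at 0 in TB+ IL-2. It was at 0, 0 and 1377 TPM in TB IL-2nil and at 0, 0 and 1063 TPM in TB+ IL-2nil. It was thus listed at 0 in some libraries without PMA/I too, and as a short RNA it has an uncertain value in such libraries as well. Of the other large falls, *Fam78a*, *AI467606*, *Chst12* and *Arl4c* differed by -4.03 to -3.25.

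Cytokine receptor genes fell in 4 of 21 cases (19%, against 3.1% of all genes tested). They rose in 1 (4.76%), close to the 3.94% of all genes tested. Without the moved libraries 5 fell. *Il4ra*, the signalling chain of the IL-4 receptor, fell from 177, 187 and 171 TPM to 41.6, 42.0 and 45.4 TPM (-2.03, SE 0.25, adjusted P = 0.000162), with hardly any spread within the groups. *Il10rb* fell from 30.9 to 43.3 TPM to 4.41 to 6.49 TPM (-2.52, SE 0.23, adjusted P = 1.81e-05). *Ifngr1* and *Ifngr2*, both chains of the interferon gamma receptor, fell while *Ifng* itself rose. *Ifngr1* differed by -1.88 (SE 0.42, adjusted P = 0.00536), and by -1.56, just under 3-fold, without TB+ IL-2 replicate 1. *Il6st*, the shared chain gp130, rose from 15.3 to 19.8 TPM to 56.1 to 145 TPM. *Il2ra*, the high-affinity chain of the receptor for IL-2, was at 339, 759 and 229 TPM before and 848, 805 and 630.0 TPM after PMA/I (0.95, SE 0.35, adjusted P = 0.0533), and the groups overlapped only through TB IL-2 replicate 2.

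Of 10 chemokine receptor genes 3 rose (30%) and 0 fell, with or without the moved libraries, among them *Ccr1* and *Cxcr3*. *Cxcr3*, a receptor of Th1 cells, differed by 2.02 (SE 0.54, adjusted P = 0.0147), and lost its call without TB IL-2 replicate 1 (1.49, adjusted P = 0.0596) or TB+ IL-2 replicate 2 (1.92, adjusted P = 0.0519). *Ccr1* rose from 0.319 to 0.487 TPM to 4.77 to 9.85 TPM.

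Of 24 genes of the TCR signalling machinery 3 rose (12.5%, against 3.94% of all genes tested) and 2 fell (8.33%, against 3.1%), with a median difference of -0.00. *Ptpn22*, a phosphatase that restrains TCR signalling, rose from 52.9, 33.0 and 53.1 TPM to 781, 670.0 and 461 TPM (3.75, SE 0.29, adjusted P = 6.41e-06). *Lcp2*, the adaptor SLP-76, rose from 101 to 119 TPM to 435 to 536 TPM. *Ubash3a* and *Sla2*, both negative regulators of the TCR, fell by 2.58 (SE 0.36, adjusted P = 0.000359) and 2.12 (SE 0.42, adjusted P = 0.0029) on the log2 scale. *Lck*, *Zap70*, *Lat* and the CD3 genes were not called. Without the moved libraries 3 rose and 3 fell.

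Among 30 lineage and signal-dependent transcription factor genes 6 rose (20%) and 3 fell (10%), also without the moved libraries. *Tbx21*, the Th1 factor T-bet, rose from 6.69, 14.2 and 9.51 TPM to 146, 97.3 and 91.4 TPM (3.36, SE 0.45, adjusted P = 0.000291). *Runx2* and *Ets2* rose by 2.87 (SE 0.40, adjusted P = 0.00036) and 2.56 (SE 0.21, adjusted P = 1.05e-05). *Id3*, an inhibitor of E proteins, fell from 54.3, 15.7 and 21.9 TPM to 2.57, 2.16 and 2.73 TPM (-2.99, SE 0.45, adjusted P = 0.000638). *Gata3* and *Foxp3* were not called.

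*Myc*, a master regulator of growth that IL-2 also sustains, went from 40.2, 170.0 and 180.0 TPM to 757, 697 and 574 TPM (2.63, SE 0.48, adjusted P = 0.00188). TB IL-2 replicate 1 was the lowest by far. Of the 23 genes of the MYC network and ribosome biogenesis 4 rose (17.4%) and 2 fell (8.7%), with a median of 0.99. Without the moved libraries these counts were 6 and 2. The 2 that fell, *Mxd3* and *Mxd4*, encode antagonists of MYC. *Mxd3* fell from 33.8 to 56.9 TPM to 4.83 to 8.27 TPM (-2.77, SE 0.27, adjusted P = 3.63e-05). *Mxd4* lost its call without TB IL-2 replicate 1 (-1.58, adjusted P = 0.0593) or TB+ IL-2 replicate 2 (-1.57, adjusted P = 0.0626), and *Gnl3* fell under 3-fold without TB IL-2 replicate 1 (1.46).

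Of 22 genes of nutrient uptake and glycolysis 3 rose (13.6%) and 0 fell, and 5 rose without the moved libraries. The amino acid transporter gene *Slc7a1* rose from 42.5 to 58.9 TPM to 155 to 235 TPM (2.00, SE 0.27, adjusted P = 0.000281). *Hk2*, a hexokinase, and *Slc16a1*, a lactate transporter, differed by 2.03 and 1.84, and by 1.46 and 1.42, under 3-fold, without TB IL-2 replicate 1. *Gapdh* was at 1254 to 2780.0 TPM before and 1475 to 2287 TPM after PMA/I (-0.02, SE 0.43, adjusted P = 0.981).

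Of 16 genes of the BCL-2 family 3 rose (18.8%, against 3.94% of all genes tested), with or without the moved libraries. In both cases 1 fell (6.25%, against 3.1%). *Bcl2a1b* and *Bcl2a1d*, antiapoptotic genes of 1 family of near-identical copies among which reads may be split, rose by 4.92 (SE 0.27, adjusted P = 6.17e-07) and 3.49 (SE 0.30, adjusted P = 1.49e-05). *Bcl2l11*, the proapoptotic BIM, rose by 1.72 (SE 0.22, adjusted P = 0.000241), and *Bbc3*, the proapoptotic PUMA, differed by -1.76 (SE 0.41, adjusted P = 0.00743), and by -1.40 without TB IL-2 replicate 1. *Mcl1* was at 142 to 167 TPM before and 156 to 165 TPM after PMA/I.

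Of 11 SOCS, CISH and PIM genes, which are targets of cytokine signalling, 1, *Pim3*, rose (9.09%, against 3.94% of all genes tested), and 2 without the moved libraries. *Pim1*, a STAT5 target kinase, was at 216, 332 and 444 TPM and then at 1177, 859 and 855 TPM, a difference of 1.58 (SE 0.36, adjusted P = 0.00648) that is just under 3-fold. *Socs1*, a feedback inhibitor of JAK kinases, was at 228, 396 and 132 TPM and then at 112, 69.7 and 91.6 TPM (-1.34, SE 0.44, adjusted P = 0.0339). *Cish*, another STAT5 target, was at 157, 197 and 145 TPM and then at 363, 229 and 290.0 TPM (0.80, SE 0.43, adjusted P = 0.167).

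Of 23 interferon-stimulated genes 3 rose (13%) and 1 fell (4.35%, near the 3.1% of all genes tested), against 4 and 1 without the moved libraries. The guanylate-binding protein genes *Gbp3* and *Gbp2* rose by 3.38 (SE 0.26, adjusted P = 5.66e-06) and 2.46 (SE 0.47, adjusted P = 0.00255), and *Ifih1*, the RNA sensor MDA5, by 2.86 (SE 0.32, adjusted P = 0.000105). *Ifit2* fell by 1.64 on the log2 scale (SE 0.30, adjusted P = 0.00174), and differed by -1.38 to -1.58 without TB IL-2 replicate 1 or 3 or TB+ IL-2 replicate 1.

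Of 8 RGS genes, which shorten G protein signalling, 3 rose (37.5%, against 3.94% of all genes tested) and 1 fell (12.5%, against 3.1%), and *Rgs16* rose from 0.0489 to 0.413 TPM to 41.1 to 80.0 TPM (5.65, SE 0.28, adjusted P = 2.18e-07). Of 8 granzyme, perforin and serpin genes 1 rose (12.5%), *Serpinb6b* (2.34, adjusted P = 0.0291), and 0 without the moved libraries (2.53, adjusted P = 0.0502). *Serpinb6b* also lost its call without TB IL-2 replicate 1 or 2 or TB+ IL-2 replicate 2 (1.73 to 2.40, adjusted P = 0.0585 to 0.121). *Gzmb* was at 389 to 594 TPM before and 381 to 532 TPM after PMA/I. Of 8 GIMAP genes 1 rose (12.5%), *Gimap5* (1.97, adjusted P = 0.00732), and it was under 3-fold without TB IL-2 replicate 1 (1.45). With the replicate number as a block, *Gimap7* was called as well (-1.63, adjusted P = 0.000403). Of 15 integrin and adhesion genes 1 fell (6.67%), *Selplg*, which encodes the selectin ligand PSGL-1, from 185 to 219 TPM to 45.9 to 108 TPM (-1.64). It was under 3-fold without TB+ IL-2 replicate 1 (-1.53) or 2 (-1.39). Without the moved libraries *Itgav* of this list was called higher (1.80, adjusted P = 0.00118). The proteoglycan gene *Srgn*, which encodes serglycin of secretory granules, rose from 320.0, 411 and 335 TPM to 2557, 2595 and 1841 TPM (2.70, SE 0.19, adjusted P = 3.64e-06).

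Short motifs were counted in the 250 bases before the start of each gene that could be matched to RefSeq, which gave 460 promoters of 363 induced genes, 402 promoters of 311 repressed genes and 12005 promoters of 9530 tested genes. Motifs were searched on both strands, except for TATAAA, which was searched on the strand of the gene. The AP-1 site, TGA and TCA with any 1 base between them, was in 13.3% of promoters of induced genes, 2.99% of those of repressed genes and 4.36% of all tested. TATAAA, the TATA box, was in 7.17%, 2.74% and 3.98%. The 3 shares were 32%, 21.1% and 27% for TGACG and 4.13%, 1.49% and 2.74% for TGACGTCA, the full CREB site, which contains the half-site. The core of NFAT sites, GGAAA, was in 62%, 54.2% and 54.4%, and the NF-kB consensus in 13.5%, 10.2% and 8.81%. The EGR site GCGTGGGCG was in 1.96%, 0.995% and 1.07% and the CArG box, bound by SRF, in 1.52%, 0.995% and 1.12%. Median GC content was 58.8%, 60.0% and 59.2%.

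Within the gene lists the shares differed from motif to motif. Genes with more than 1 start entered with each of their promoters. The NF-kB consensus was in 8 of 15 promoters (53.3%) of 10 induced NF-kB genes, *Rel* printed above among them, and GGAAA in 12 (80%). TGACG was in 12 of 17 promoters (70.6%) of 10 induced EGR, NR4A and early response genes, such as both NR4A promoters above, with 4 copies each. The CArG box was in 4 of these 17 (23.5%). TATAAA was in 8 of 16 promoters (50.0%) and GGAAA in 13 of 16 (81.2%) of 15 induced cytokine genes, for which *Il2* is the example above. The AP-1 site was in 3 of these 16 (18.8%) and in 0 of 13 promoters of 10 induced AP-1 genes themselves. Over the promoters of all tested genes the shares were 8.81% for NF-kB, 27% for TGACG, 3.98% for TATAAA and 54.4% for GGAAA. For the AP-1 site and the CArG box they were 4.36% and 1.12%. Over all 32851 promoters of the reference table the shares were 7.25% for NF-kB, 17.8% for TGACG, 7.59% for TATAAA, 55.6% for GGAAA and 6.75% for the AP-1 site. These are counts of letters and not of bound sites.

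**Figure D4:**
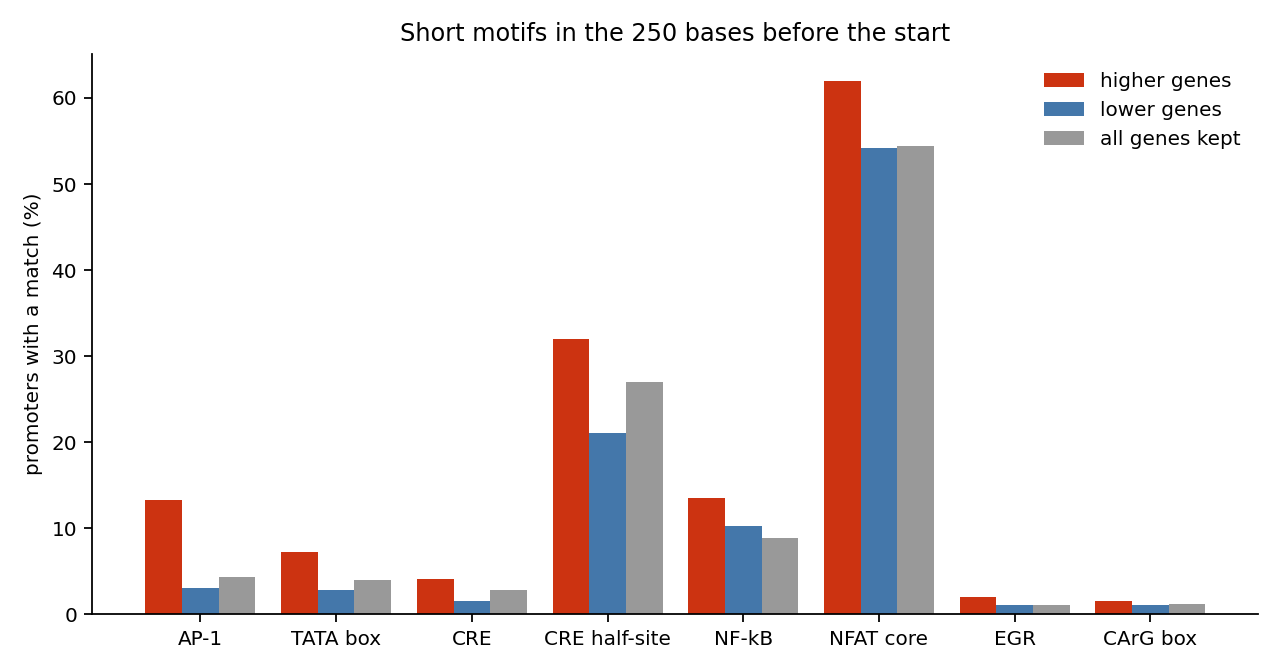
Share of promoters with at least 1 match (y axis, percent) for 8 short motifs (x axis), in genes called higher (red), genes called lower (blue) and all genes tested (grey). The AP-1 bar of the higher genes stands at 13.3% against 4.36% for all genes, and GGAAA is in over 50% of promoters of every group.

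The response to PMA/I in cells kept in IL-2 was set beside that in cells without IL-2 for 16 h. TB+ IL-2nil against TB IL-2nil gave 968 genes higher (7.78%) and 1328 lower (10.7%). Of the 490 genes induced with IL-2, 418 (85.3% of them, 43.2% of the 968) were also called without it, and 488 had the same sign, with a median of 2.96 without IL-2 against 2.39 with it. Of the 386 repressed genes 325 (84.2% of them, 24.5% of the 1328) were also called without it, and 384 had the same sign, with medians of -2.38 and -1.91. No library is shared between the groups of these 2 comparisons, but the 490 and 386 were chosen on the first. Both comparisons use the same estimate of spread for each gene, from all 12 libraries, so their calls are not independent.

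Whether a response differed in size was tested with an interaction term. At an adjusted P under 0.05 it was called for 526 genes (4.23%), 195 in which TB+ minus TB was larger with IL-2 (1.57%) and 331 in which it was smaller (2.66%). Of the 490 induced genes it was called for 52, of which 43 rose less with IL-2 and 9 rose more. Of the 386 repressed genes it was called for 14, of which 5 fell more with IL-2 and 9 less. These counts varied strongly between settings. The interaction was called for 3 and 1 genes without the moved libraries, for 0 and 1 without the upper quartile scaling, and for 760 and 718 with the replicate number as a block.

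For several of the most induced genes the size of the rise was not shown to differ between the cultures. *Il2* rose by 11.67 with IL-2 and by 10.79 without it, a difference of 0.87 (SE 0.79, adjusted P = 0.54). For *Nr4a3* the rises were 9.44 and 9.65, a difference of -0.21 (SE 0.36, adjusted P = 0.755). *Il3* rose by 11.67 and 9.65, a difference of 2.02 (SE 0.62, adjusted P = 0.0878). Its mean after PMA/I was 3852 TPM with IL-2 and 1493 TPM without it. The study names *Il3* among the induced genes that were affected by the removal of IL-2. The response of the STAT5 target *Cish* did differ by the interaction test. *Cish* rose by 0.80 with IL-2 and by 5.27 without it, a difference of -4.46 (SE 0.60, adjusted P = 0.0108). It was at 157, 197 and 145 TPM in TB IL-2 and at 15.5, 5.11 and 25.1 TPM in TB IL-2nil, while both PMA/I groups lay at 229 to 660.0 TPM. *Myc* rose by 2.63 and 6.36, a difference of -3.73 (SE 0.68, adjusted P = 0.0209), from 40.2 to 180.0 TPM in TB IL-2 and from 14.4 to 29.2 TPM in TB IL-2nil. Without the moved libraries the adjusted P was 0.0403 for *Cish* and 0.08 for *Myc*.

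**Figure D5:**
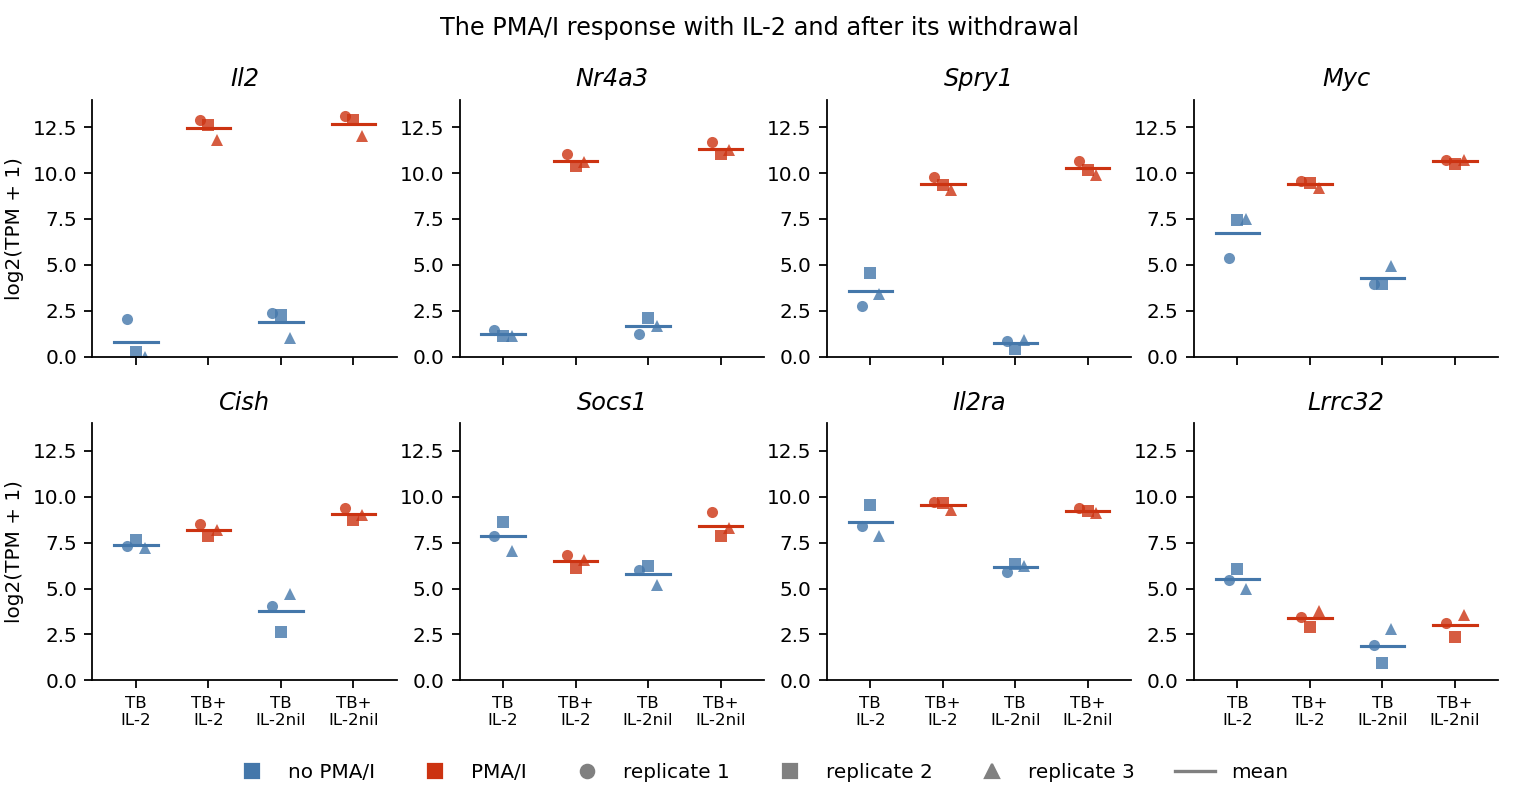
Log2(TPM + 1) (y axis) in each library of the 4 groups (x axis) for 8 genes, with replicates by symbol, group means as bars, unstimulated groups in blue and PMA/I groups in red. *Il2* rose to means of 5837 and 6905 TPM and *Nr4a3* to 1655 and 2602 TPM with and without IL-2, while *Cish* rose by 5.27 from a low level without IL-2 and by 0.80 from a high level with it.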

How the data were processed

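The authors sequenced RNA of 12 cultures. Reads were trimmed with Trimmomatic 0.32, aligned to mm9 with HISAT2 2.1.0 and quantified with StringTie 1.3.3 (submitters' processing notes). The deposited values are FPKM for 24439 gene names, without counts, although the methods name TPM. The FPKM sums were 193815 to 420487 and the relative depth, from the steps of low values, 0.409 to 1.25. Without counts no counting interval is given.

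Here each library was rescaled to 1000000 TPM, 12442 genes with over 1 TPM in 1 or more libraries entered, and the 75th percentiles were made equal. A limma model (3.58.1, R 4.3.3) of 4 groups without a block was fitted to log2(TPM + 1) in all 12 libraries (8 residual degrees of freedom, 6 without the moved libraries). The fit was tested on simulated data. The methods give 30 h in IL-2 before the last 16 h, the labels 2 days.

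Members, lists and motifs were chosen with earlier results of these data known. Genes named with values were the 12 largest called differences in each direction without overlap (2 unnamed or small RNA symbols left out), 5 genes of each of 33 lists and the 6 most abundant called genes in each direction. Some of these genes are not reported here. Placed as above, libraries of 1 replicate number deviated together from their group means in all 18 pairs (r = 0.101 to 0.531). The labels do not say what a number shares. Alternatives were the labelled placement, leaving out libraries, pseudocount, filter, scaling, trend and block. Gene positions are those of GENCODE M1 on mm9, promoters those of RefSeq on GRCm38.p6. Figures used matplotlib 3.10.9 in Python 3.11.15.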

Additional observations from a re-analysis of the deposited data

Results flagged for a closer look

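For 15 of the 160 genes of the naming rule the response to PMA/I differed between cells with and without IL-2 by the interaction test. The test was limma at an adjusted P under 0.05, with 3 libraries in each of 4 groups. Over all genes tested the share was 4.23%. The 160 were chosen in part by the size of the response with IL-2, which enters the interaction, so these figures cannot be set against each other. The values are the response with IL-2 minus that without it, in log2(TPM + 1). Of the 15, 1 had a positive difference, *Btg1*, which rose by 2.61 with IL-2 and differed by 0.99 without it, a difference of 1.62 (SE 0.32, adjusted P = 0.0265).

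Genes that rose in both cultures, but less with IL-2, were *Atf3* -2.38 (SE 0.44, adjusted P = 0.0226), *Spry1* -3.71 (SE 0.56, adjusted P = 0.0118) and *Tnfrsf4* -2.02 (SE 0.34, adjusted P = 0.0161). In the group of growth and metabolism genes the differences were *Myc* -3.73 (SE 0.68, adjusted P = 0.0209), *Gnl3* -2.37 (SE 0.47, adjusted P = 0.0265), *Hk2* -3.01 (SE 0.59, adjusted P = 0.0265), *Slc16a1* -2.47 (SE 0.56, adjusted P = 0.0368) and *Slc7a1* -2.77 (SE 0.38, adjusted P = 0.0108). The targets of IL-2 signalling had *Cish* -4.46 (SE 0.60, adjusted P = 0.0108), *Socs1* -3.96 (SE 0.62, adjusted P = 0.0125) and *Il2ra* -2.13 (SE 0.49, adjusted P = 0.0389). *Socs1* differed by -1.34 after PMA/I with IL-2 and rose by 2.62 without it. *Lrrc32* fell by 2.14 with IL-2 and differed by 1.13 without it, a difference of -3.27 (SE 0.66, adjusted P = 0.0266). The cell cycle genes were *Cdc6* -1.78 (SE 0.43, adjusted P = 0.0434), which fell with IL-2 and differed by -0.72 without it, and *Pcna* -1.25 (SE 0.27, adjusted P = 0.0333). All genes with a negative difference had a higher mean in TB IL-2 than in TB IL-2nil. A higher TB IL-2 level itself lowers this difference, so the choice of these genes favours such a pattern. The mean of *Slc7a1* went from 48.3 to 197 TPM with IL-2 and from 8.72 to 262 TPM without it. That of *Il2ra* went from 442 to 761 TPM and from 71.3 to 607 TPM.

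Without both moved libraries only *Cish* stayed under the threshold among these 15 (adjusted P = 0.0403), and the others had adjusted P = 0.061 to 0.135. With the replicate number as a block all 15 stayed under it (adjusted P = 0.00698 to 0.0196).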

How the results depend on the processing

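With the libraries as labelled the counts were 21 higher and 23 lower, and the interaction was called for 0 genes in either direction. Lower genes numbered 798 with a pseudocount of 0.1 and 231 after quantile normalization. Leaving out 1 of the 6 libraries gave 448 to 563 higher and 323 to 484 lower genes. The split of calls (55.9% higher) was 69.9% after quantile normalization, 66.7% without the filter and 45.7% with a pseudocount of 0.1. The median of all genes was -0.10 after quantile normalization, -0.29 without upper quartile scaling, -0.02 without the filter and -0.28 with a pseudocount of 0.1. The interaction (195 and 331 genes) gave 3 and 1 without both moved libraries, 62 and 179 with a pseudocount of 0.1, 0 and 1 without upper quartile scaling, and 24 to 271 and 73 to 370 when 1 library was left out (lowest without TB IL-2 replicate 2, TB+ IL-2 replicate 2 and TB+ IL-2 replicate 3). With the replicate block 501 genes were higher and 393 lower, all 490 and 386 stayed called, *Gimap7* was the 1 named gene whose call changed, and the interaction gave 760 and 718 genes. The causes were not tested. Of the 113 named genes that were called, 111 stayed called without the moved libraries and 16 lost the call when some library was left out, and no named gene changed sign with a call. Trend, the 6 libraries alone, a filter of 3 libraries and removal of short RNAs kept the counts of higher and lower genes within 1.5 times.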
